A study of Mus musculus with 32 samples.

Results

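Adding Mst1 to the dnPI3K background was examined in 8 mouse atria, 1 from each of 8 animals, out of 32 arrays in the series. The series holds 16 mice of 4 genotypes, with 2 atrial arrays per mouse and 4 mice per genotype: Ntg (non-transgenic), Mst1, dnPI3K and dnPI3K-Mst1. From each dnPI3K and dnPI3K-Mst1 mouse the array with a Bmp10 signal above 9 log2 was taken, which gave 4 arrays per genotype. Both groups therefore carry the dnPI3K transgene, a dominant negative form of phosphoinositide 3-kinase, and they differ by Mst1. All mice were kept on standard chow, per the labels. Age, sex, strain and the promoter driving each transgene are not given in the sources used here. Published lines of these names express the transgenes in cardiac myocytes, but whether these animals are those lines was not tested. Nothing in the labels names a batch.

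MST1 is a serine/threonine kinase at the top of the Hippo pathway. It activates the LATS kinases, which phosphorylate the co-activators YAP and TAZ and keep them from their DNA-binding partners, the TEAD factors. In cardiac myocytes MST1 is known for promoting cell death and dilated cardiomyopathy when overexpressed. Phosphoinositide 3-kinase (p110 alpha) acts downstream of insulin and IGF1 receptors and is known for physiological heart growth and protection. The kinase MST1 is encoded by Stk4; the mouse gene whose symbol is Mst1 encodes an unrelated secreted protein.

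Bmp10, a secreted BMP family member, is known as a right atrial gene in the adult mouse. Because it chose the arrays, its values are a description only. In dnPI3K animals 1507, 1648, 1660 and 3241, Bmp10 read 12.77, 12.35, 12.54 and 12.65 log2. In dnPI3K-Mst1 animals 1509, 1647, 1649 and 1650 it read 12.30, 12.23, 12.60 and 12.39 log2. Values below follow this order of animals. The threshold lay in a wide gap: the lowest of the 8 arrays was at 12.23, and the highest of the other 8 arrays of the same animals was at 6.13. Over all 32 arrays the value just above the threshold was 11.42 and the value just below it 6.64. All 8 arrays are nevertheless labelled left atrium, while in Ntg and Mst1 the Bmp10-high arrays are labelled right in 2 of 4 and 1 of 4 mice. Hamp, another right atrial gene, read 8.92, 10.66, 10.02 and 10.42 in dnPI3K and 8.86, 9.09, 8.98 and 9.56 in dnPI3K-Mst1. In the Bmp10-low arrays Hamp read 7.01, 7.45, 7.55 and 8.32 in dnPI3K and 8.53, 7.77, 9.23 and 8.99 in dnPI3K-Mst1. It was thus higher in the Bmp10-high array of every dnPI3K animal, but in dnPI3K-Mst1 animal 1649 the order was reversed. The labels therefore disagree on the side with Bmp10 in both groups and with Hamp in dnPI3K, while Hamp marks the side poorly in dnPI3K-Mst1. The arrays are called Bmp10-high atria here.

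**Figure D1:**
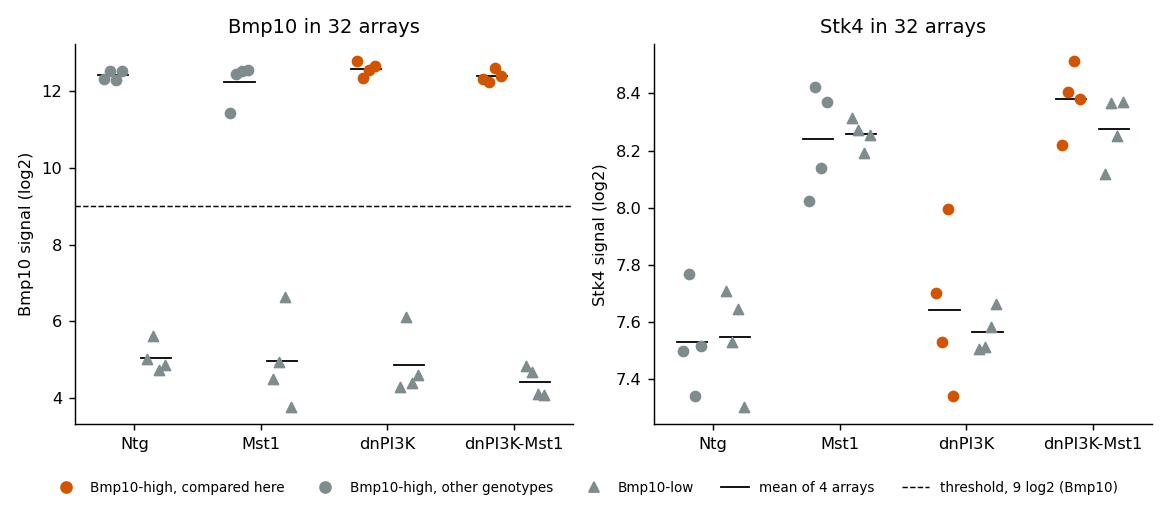
Signal of Bmp10 (left) and Stk4 (right) on the log2 axis in all 32 arrays, by genotype; circles are Bmp10-high and triangles Bmp10-low arrays, orange circles are the 8 arrays compared, and bars are means of 4. No array lies between 6.64 and 11.42 log2 of Bmp10, and every orange Stk4 value of dnPI3K-Mst1 lies above every one of dnPI3K.

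Stk4 rose with the Mst1 transgene, which checks the labels. It read 7.70, 7.53, 8.0 and 7.34 log2 in dnPI3K and 8.22, 8.41, 8.51 and 8.38 in dnPI3K-Mst1, and the groups did not overlap. The difference was 0.74 ± 0.13 log2 (SE, 4 against 4), or 1.67-fold, with an adjusted p of 0.00191. In the Bmp10-low atria of the same animals it was 0.71 log2. How much of the transgene's RNA the probes detect is not given in the sources used here. Pik3ca, which encodes p110 alpha, read 9.74 to 10.22 in dnPI3K and 10.26 to 10.40 in dnPI3K-Mst1, a difference of 0.29 ± 0.11 log2 that was not called (adjusted p = 0.0959). It was called without dnPI3K animal 3241 (0.35 log2, adjusted p = 0.0387). Pik3r1, the regulatory subunit p85 alpha, read 9.37, 9.19, 9.37 and 9.16 against 9.15, 8.77, 8.88 and 8.84 and fell by 0.36 ± 0.11 log2 (adjusted p = 0.038). This call was lost when each array was centred on its median (adjusted p = 0.101) and without any 1 of animals 1507, 1660, 1647, 1649 and 1650 (0.0909 to 0.111).

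The arrays' medians lay between 5.56 and 5.68 log2. The highest correlation of any 2 of the 32 arrays was 0.990, and no duplicates were found. The Bmp10-high array of Mst1 animal 1466, used only in the comparison without dnPI3K, stood furthest apart of the 32, with a mean correlation of 0.949 to the other arrays. Among the 8 arrays that of dnPI3K animal 3241 stood apart, at 0.960 and a fitted weight of 0.295, and that of animal 1507 followed at 0.968. The array of dnPI3K animal 1648 carried Myl2, a ventricular myosin light chain, at 10.70 log2 against 5.21 to 6.56 in the other 7 arrays. Counts that moved by over 1.5 times without 1 array are given with the results.

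Across 15176 genes, 2159 (14.2%) differed between dnPI3K-Mst1 and dnPI3K at an adjusted p under 0.05. Of these, 1383 (9.11%) were higher and 776 (5.11%) lower with Mst1. Calls with at least a 2-fold difference numbered 172 higher (1.13%) and 76 lower (0.501%). Among all genes the median difference was 0.04 log2. The 4 arrays of each group did not overlap for 2962 genes (19.5%). The share of higher calls was 64.1%. It was 54.1% after quantile normalization (1179 higher, 1002 lower) and 61.7% with each array centred on its median. Without both animals 1507 and 3241 it was 52.2% (995 higher, 912 lower). Leaving out 1 array gave 58.2% (without animal 3241) to 69.4% (without animal 1660). The size of the excess of rises thus varied with the scaling and the arrays used. Without dnPI3K-Mst1 animal 1649, 1443 genes were called, of which 885 were higher. The p-values rest on the variation among 4 animals per genotype.

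**Figure D2:**
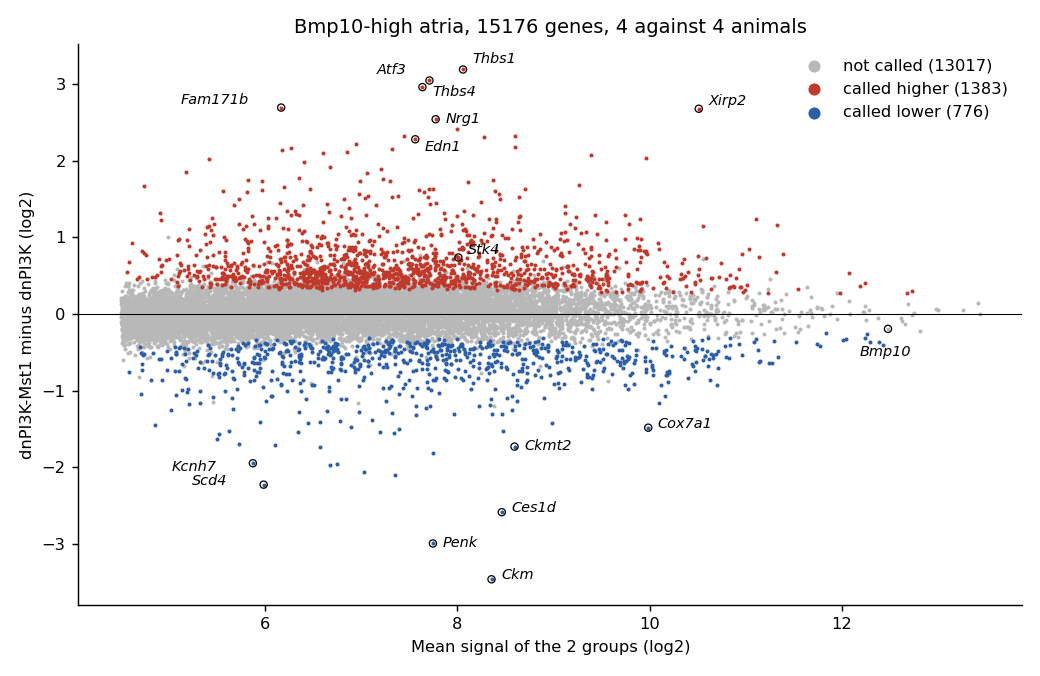
Difference of dnPI3K-Mst1 minus dnPI3K (log2, vertical) against the mean signal of the 2 groups (log2, horizontal) for 15176 genes; red points were called higher (1383), blue points lower (776), grey points were not called, and rings mark named genes. Rises reach 3.19 log2 (Thbs1) and falls -3.46 log2 (Ckm).

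The largest rises belonged to matrix, stress and ligand genes. Thbs1, which encodes the matrix protein thrombospondin 1, an activator of latent TGF-beta, read 6.44, 6.73, 6.45 and 6.24 log2 in dnPI3K and 9.16, 10.57, 9.32 and 9.56 in dnPI3K-Mst1. That is a rise of 3.19 ± 0.23 log2, or 9.11-fold (adjusted p = 1.05e-06). Atf3, a stress-induced transcription factor, read 5.68, 6.22, 6.66 and 6.20 against 8.97, 8.81, 9.66 and 9.49, a rise of 3.04 ± 0.21 log2 (adjusted p = 5.77e-07). The rises ranked here were taken from called genes whose groups do not overlap, so the separation is a description. Animal 1647 was the highest for Thbs1. Thbs4, thrombospondin 4, rose by 2.96 log2, from 5.86 to 6.56 in dnPI3K to 8.92 to 9.40 in dnPI3K-Mst1. Xirp2, an actin-binding protein of the intercalated disc, rose by 2.68 ± 0.12 log2, from 8.95 to 9.28 up to 11.52 to 12.12. The remaining genes among the 12 largest rises were Fam171b (2.69), Nrg1 (2.54), Tagln (2.41), Nes (2.32), Aspn (2.32), Meox1 (2.30), Edn1 (2.28) and Uchl1 (2.22 log2). They include the growth factors neuregulin 1 and endothelin 1, the smooth muscle actin-binding protein transgelin, the intermediate filament nestin and the collagen-binding proteoglycan asporin.

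The largest falls belonged to energy transfer, lipid and muscle genes. Ckm, the muscle creatine kinase, read 9.87, 10.12, 10.28 and 10.08 log2 in dnPI3K and 6.77, 6.22, 6.69 and 6.81 in dnPI3K-Mst1. It fell by 3.46 ± 0.14 log2, an 11-fold difference (adjusted p = 6.84e-09). Penk, which encodes the opioid precursor proenkephalin, read 9.10, 9.47, 9.02 and 9.39 against 6.93, 5.43, 6.32 and 6.32 and fell by 3.00 ± 0.23 log2. Both genes separated the groups by more than 1 log2, and animal 1647 had the lowest value for each. The falls ranked here were also taken from called genes whose groups do not overlap. Ces1d, a carboxylesterase that hydrolyses lipids, fell by 2.59 ± 0.12 log2, from between 9.59 and 10.03 down to between 6.97 and 7.37. Further falls were those of Scd4 (-2.23), a fatty acid desaturase, Asb14 (-2.10), Lmod3 (-2.06), an actin filament nucleator of striated muscle, Car3 (-1.97), Cyp2e1 (-1.96), Kcnh7 (-1.95), Dgat2 (-1.82), the enzyme of the last step of triglyceride synthesis, Scgb1c1 (-1.73) and Ckmt2 (-1.73 log2), the sarcomeric mitochondrial creatine kinase. Car3 lost its call with the animal as a block over both atria (adjusted p = 0.163). Car3 and Cyp2e1 are abundant in fat tissue, and their dnPI3K arrays ranged from 6.55 to 8.79 and 7.27 to 8.35 log2. Of 9 adipocyte markers measured 0 rose and 1 fell (0 to 2 lower with 1 array left out), at a mean level of 6.15 to 6.46 in dnPI3K and 6.10 to 6.28 in dnPI3K-Mst1. The fat gene Adipoq, left out of these as too dim, read 4.33, 5.37, 4.75 and 3.70 against 3.35, 4.01, 3.47 and 3.49. Among dnPI3K arrays animal 1648 was the highest and 3241 the lowest for Car3, Cyp2e1 and Adipoq. In the Bmp10-low atria Car3 and Cyp2e1 differed by 1.79 and 0.20 log2, not called. Whether fat content differed was not tested.

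**Figure D3:**
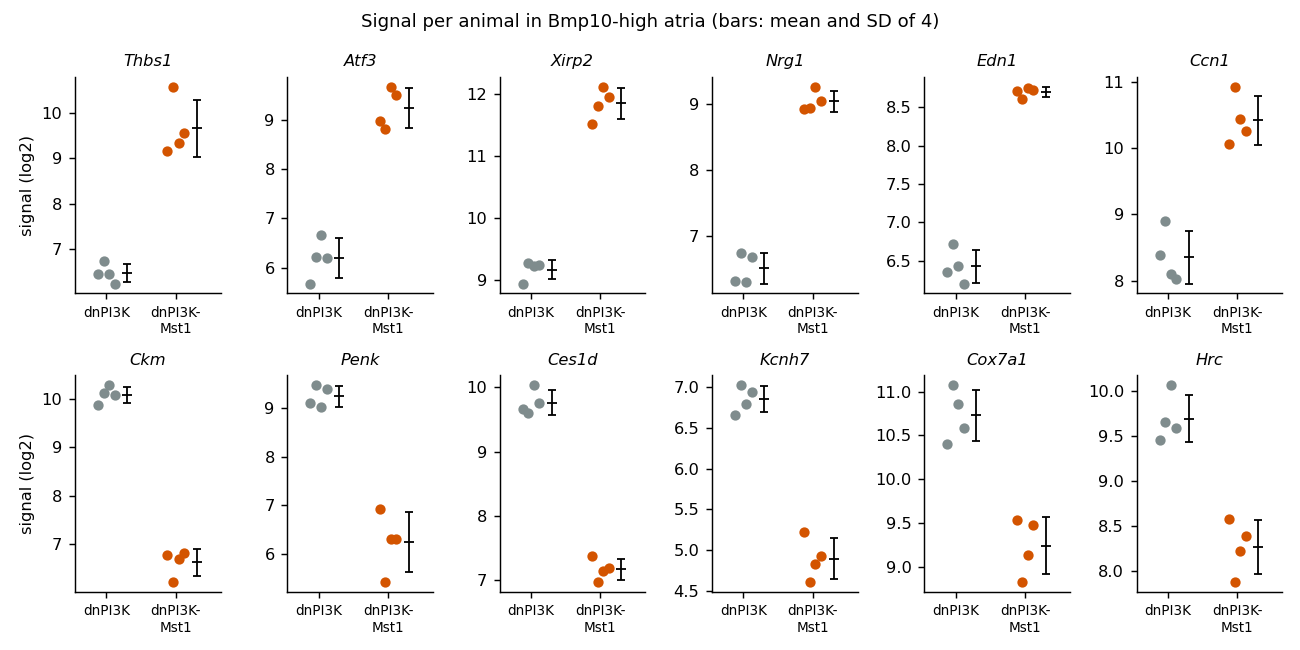
Signal (log2) of 12 named genes in each of the 8 Bmp10-high atria; grey points are dnPI3K and orange points dnPI3K-Mst1 animals in the order of the text, and bars give the mean and SD of 4. The upper 6 genes rise and the lower 6 fall. The groups do not overlap for any of the 12, but most were chosen among genes without overlap, so this is a description. Among all genes 19.5% do not overlap.

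The Hippo pathway itself was next, in a list of its core kinases, adaptors and TEAD partners. Of 29 measured members 11 rose and 0 fell, with a median of 0.27 log2 against 0.04 over all genes. Among all genes 9.11% were higher and 5.11% lower. Besides Stk4, the members that rose were scaffold, kinase and cofactor genes. Vgll3, a TEAD-binding cofactor, rose by 0.98 ± 0.12 log2, from 6.05 to 6.44 up to 7.01 to 7.35. The NDR kinases Stk38 and Stk38l, which are substrates of MST kinases, each rose by 0.65 log2, and Lats2 rose by 0.42 log2. Lats2 lost its call without animals 1507 and 3241 (0.35 log2, adjusted p = 0.0675) and without any 1 of animals 1509, 1649 and 1650 (0.0519 to 0.0703). The list's higher count was 7 without animals 1507 and 3241, and 6 without any 1 of animals 1509, 1649 and 1650 or with each array centred on its median.

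Many genes known as YAP and TEAD targets rose. Of 21 measured, 13 were higher and 0 lower with Mst1, against 9.11% and 5.11% of all genes, with a median of 0.47 log2. Without animal 1649 or 1650 the higher count was 8, and without animals 1507 and 3241 it was 9. Ccn1, a matricellular protein, read 8.38, 8.90, 8.10 and 8.03 log2 in dnPI3K and 10.06, 10.93, 10.44 and 10.26 in dnPI3K-Mst1, a rise of 2.07 ± 0.20 log2 (adjusted p = 1.13e-05). Ccn2, its profibrotic relative, read 11.06, 10.89, 10.81 and 10.25 against 11.87, 11.53, 12.15 and 12.09 and rose by 1.16 log2. Every array with Mst1 lay above every array without it for both genes. Axl, a receptor tyrosine kinase, rose by 1.07 log2, Tgfb2 by 0.83, Crim1 by 0.83 and Ankrd1, a stress protein of the sarcomere, by 0.27 log2. The Ankrd1 call was lost without any 1 of animals 3241, 1509, 1649 and 1650 (adjusted p = 0.0536 to 0.0754). Several of these genes also belong to other lists, since matrix and stress programmes share them, and the data do not show which factor acts on them.

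To show where the TEAD motif lies, the 250 bases before the start of 4 of these genes are printed from RefSeq (GRCm38.p6), 5′ to 3′ on the gene's strand, with each motif in capitals. The motif searched was GGAATG on either strand, which reads CATTCC on the other. The windows are chr3:145649986-145650235 (minus strand) for Ccn1, chr7:25788734-25788983 (minus) for Axl, chr17:78199998-78200247 (plus) for Crim1 and chr19:36119845-36120094 (minus) for Ankrd1.
Ccn1: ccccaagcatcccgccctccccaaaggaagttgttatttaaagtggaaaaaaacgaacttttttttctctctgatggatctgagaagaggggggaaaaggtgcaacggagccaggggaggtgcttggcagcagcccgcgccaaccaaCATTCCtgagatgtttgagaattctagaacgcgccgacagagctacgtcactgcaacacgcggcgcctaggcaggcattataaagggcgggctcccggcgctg
Axl: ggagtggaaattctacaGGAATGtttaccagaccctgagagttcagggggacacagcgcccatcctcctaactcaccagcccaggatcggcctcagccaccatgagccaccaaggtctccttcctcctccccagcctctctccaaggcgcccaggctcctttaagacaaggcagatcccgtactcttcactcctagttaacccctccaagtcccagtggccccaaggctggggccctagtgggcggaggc
Crim1: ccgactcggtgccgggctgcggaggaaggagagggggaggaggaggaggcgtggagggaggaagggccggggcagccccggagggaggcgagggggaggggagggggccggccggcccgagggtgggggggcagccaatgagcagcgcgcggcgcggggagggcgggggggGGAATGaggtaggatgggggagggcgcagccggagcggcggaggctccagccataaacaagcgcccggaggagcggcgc
Ankrd1: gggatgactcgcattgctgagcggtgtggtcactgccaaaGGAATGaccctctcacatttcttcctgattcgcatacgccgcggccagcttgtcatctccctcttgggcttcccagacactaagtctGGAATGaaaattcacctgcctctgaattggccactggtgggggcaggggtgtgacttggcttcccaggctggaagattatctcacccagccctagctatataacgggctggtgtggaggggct
The motif begins 103 bases before the start in Ccn1, 233 in Axl and 79 in Crim1, and Ankrd1 holds it at 210 and again at 123 bases. Of the 21 measured targets 15 had an entry in the promoter table, and 7 of these (46.7%) held the motif, against 12.6% of all 27025 promoters. Of the 10 called targets with an entry, 6 held it. These 4 were picked from the holders after their values were seen, and Ccn2 has no entry in the table. The window is short, and a match is no evidence that a TEAD factor bound there. Other motifs were searched in the same windows: AAGGTCA (estrogen-related receptors) was in 2 of 32 complex I genes against 4.05% of all promoters, TGACTCA (AP-1) in 0 of 21 immediate early genes against 4.43%, TGACGTCA (CREB and ATF factors) in 1 of 21 against 1.62%, and the CArG box of serum response factor in 1 of 21 against 1.40%, both strands read in each case.

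Immediate early genes, transcription factors switched on within minutes of a stimulus, were higher with Mst1 in 20 of 27 measured cases and lower in 0. The shares of all genes were 9.11% and 5.11%. The list's median was 0.71 log2. After Atf3 the largest rises were those of Egr1 (1.84 ± 0.37), Egr2 (1.78 ± 0.48) and Nr4a1 (1.46 ± 0.46 log2). Egr1 read 6.16, 6.58, 6.17 and 5.68 in dnPI3K and 7.14, 9.49, 7.69 and 7.61 in dnPI3K-Mst1. Animal 1647 was the highest for all 3 genes, at 9.49, 9.28 and 10.50 log2, and for Nr4a1 the groups overlapped. Nr4a1 lost its call without any 1 of animals 1507, 1648, 3241, 1647, 1649 and 1650 (adjusted p = 0.0908 to 0.124), and Egr2 without animal 1648 (0.0558). With the animal as a block over both atria neither was called (0.131 and 0.057). Fos, the AP-1 subunit, rose by 1.29 ± 0.18 log2, from 5.41 to 6.02 up to 6.53 to 7.48. Leaving out dnPI3K animal 1648 gave 14 calls in the list, and leaving out 3241 gave 15. In the Bmp10-low atria of the same animals 0 of the 27 were called, at a median of 0.10 log2. The dnPI3K arrays already read higher there and varied widely. Atf3, Egr1, Egr2 and Nr4a1 had dnPI3K means of 8.36, 7.65, 6.45 and 8.76 log2 (SD 2.04, 0.98, 1.16 and 1.56). In the Bmp10-high atria these means were 6.19, 6.15, 5.46 and 7.515 log2. With Mst1 the means were 9.08, 8.06, 7.30 and 9.18 in the Bmp10-low and 9.23, 7.98, 7.24 and 8.97 in the Bmp10-high atria. By the limma test of the difference between atria, Egr1 was called (adjusted p = 0.0385), though not in every case of 1 animal left out. Atf3 (adjusted p = 0.147), Egr2 (0.398) and Nr4a1 (0.310) were not called in that test.

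A further list held genes that restrain MAP kinase signalling or are induced by it. Of 21 measured, 11 rose and 1 fell, with a median of 0.44 log2. Among all genes 9.11% were higher and 5.11% lower, so the fall was near that share. Errfi1, an inhibitor of EGF receptors, read 8.58, 8.52, 8.65 and 8.67 in dnPI3K and 8.88, 10.77, 10.01 and 9.83 in dnPI3K-Mst1, a rise of 1.27 ± 0.27 log2. Spry1, an inhibitor of receptor tyrosine kinase signalling, rose by 1.05 log2 and the phosphatase Dusp4 by 1.04 log2. The groups did not overlap for these 3 genes. Etv1, an ETS transcription factor, fell by 0.53 log2.

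Genes of the endothelin, angiotensin and neuregulin systems came next. Of 19 measured genes 5 rose and 4 fell, 10 were not called, and the median was -0.04 log2. Among all genes 9.11% were higher and 5.11% lower. The 5 that rose were ligands or ligand-processing enzymes. Nrg1 read 6.32, 6.74, 6.30 and 6.67 in dnPI3K and 8.93, 8.94, 9.26 and 9.05 in dnPI3K-Mst1, a rise of 2.54 ± 0.13 log2. Edn1, the precursor of the vasoconstrictor endothelin 1, read 6.35, 6.72, 6.43 and 6.20 against 8.71, 8.61, 8.76 and 8.73, a rise of 2.28 ± 0.12 log2. In both genes the 4 arrays with Mst1 lay close together and far above the highest without it. The EGF receptor ligands Ereg (1.86) and Hbegf (1.42) and the angiotensin-converting enzyme Ace (1.60 log2) rose as well. The falls were those of the angiotensin receptor Agtr1a (-1.27 ± 0.13), the neuregulin receptors Erbb4 (-0.83 ± 0.12) and Erbb3 (-0.35), and angiotensinogen Agt (-0.55 log2).

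Genes of the TGF-beta and BMP families rose in 18 of 34 cases and fell in 1, with a median of 0.43 log2. Among all genes 9.11% were higher and 5.11% lower, so the list's falls did not exceed that share. Ltbp2, a latent TGF-beta binding family member of microfibrils, rose by 1.92 ± 0.13 log2. Among the ligands Bmp4 read 6.69, 6.69, 6.38 and 6.50 against 8.53, 7.79, 7.84 and 8.17, a rise of 1.52 ± 0.15 log2, and Bmp2 rose by 1.25 log2. Bmp5 went the other way, from 6.15, 6.15, 6.42 and 6.54 to 4.84, 4.37, 4.73 and 4.8, and fell by 1.63 ± 0.14 log2. Its groups were more than 1 log2 apart. Bmp10 itself chose the arrays, so its values above are a description and not a result of this comparison.

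Cardiac stress genes rose in 16 of 23 cases and fell in 0, against 9.11% and 5.11% of all genes, with a median of 0.75 log2. After Xirp2, Nes and Uchl1 came Sprr1a, a small stress-induced protein, which rose by 2.11 ± 0.15 log2 from 5.41 to 6.14 up to 7.60 to 8.11, and Flnc, the muscle filamin, which rose by 1.29 log2. The classical natriuretic and myosin markers moved less. Nppb, the B-type natriuretic peptide, read 11.82, 11.91, 11.87 and 11.61 against 12.36, 12.04, 12.49 and 12.46 and rose by 0.53 ± 0.10 log2. Nppa, the atrial peptide, read 13.22 to 13.50 against 13.40 to 13.53, near the top of the scale, where the highest value in the table is 14.08; its difference of 0.14 ± 0.07 log2 was not called (adjusted p = 0.232). Myh7, the slow myosin heavy chain, read 7.37 to 7.96 against 7.52 to 7.76 and was not called (-0.08 ± 0.13 log2, adjusted p = 0.76).

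Extracellular matrix genes formed the largest group of rises. Of 23 collagen genes 18 rose and 0 fell, with a median of 0.80 log2. Of 51 other matrix genes 36 rose and 0 fell, with a median of 0.76 log2. The shares of all genes were 9.11% and 5.11%. Col12a1, a fibril-associated collagen, read 5.22, 5.23, 5.25 and 5.08 in dnPI3K and 7.01, 7.57, 7.53 and 7.31 in dnPI3K-Mst1, a rise of 2.16 ± 0.13 log2. Col8a1, a short-chain collagen, rose by 1.73 ± 0.10 log2 from between 6.38 and 6.54 to between 8.09 and 8.35. These minor collagens separated the groups fully. Col1a1, the main fibrillar collagen, did not: it read 10.26, 9.45, 9.33 and 8.75 against 9.92, 10.72, 10.37 and 10.34. Its rise of 0.89 ± 0.24 log2 (adjusted p = 0.0248) lost its call without any 1 of animals 1648, 1660, 1647, 1649 and 1650 (adjusted p = 0.0538 to 0.0839) and with the animal as a block (0.0517). Cilp, a cartilage protein that binds TGF-beta, rose by 2.14 log2, Sfrp2, a secreted Wnt antagonist, by 2.03 log2 and Mfap4 by 1.63 log2. The collagen count was 12 without any 1 of dnPI3K-Mst1 animals 1647, 1649 and 1650, and 18 without animals 1507 and 3241.

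Many markers of the cells that make matrix rose as well. The fibroblast list holds Col1a1 and Mfap4, named above with the matrix genes, so its count is not independent of the matrix result. In bulk tissue more cells of a type and more RNA per cell cannot be told apart. Of 17 measured fibroblast markers 9 rose and 0 fell (median 0.33 log2), against 9.11% and 5.11% of all genes. Their mean level was 8.44 to 8.87 log2 in dnPI3K and 9.15 to 9.29 in dnPI3K-Mst1. Without animal 1648 or animal 1649, 5 of them were higher. Meox1, a homeobox gene of activated fibroblasts, read 7.14, 7.17, 7.43 and 6.76 against 9.15, 9.35, 9.59 and 9.62 and rose by 2.30 ± 0.15 log2. Pi16 rose by 1.10 log2, while Scara5, another fibroblast marker, was not called (-0.35 log2, adjusted p = 0.124). Of 16 smooth muscle and pericyte markers 7 rose and 1 fell (median 0.38 log2), the fall being near the 5.11% of all genes. Tagln was at 6.62 to 6.98 against 8.81 to 9.57, and Cnn1, the contractile protein calponin, was 1.89 log2 higher. Des (0.85) and Pdgfrb (0.79 log2) were also among the 7. In the Bmp10-low atria 7 smooth muscle and pericyte markers were higher and 3 lower, and 5 fibroblast markers were higher and 3 lower. Of 18 endothelial markers 2 rose, near the 9.11% of all genes, and 1 rose without any 1 of animals 1660, 3241, 1647, 1649 and 1650. Vwf was among the 2, at 1.15 log2. The mean level of the endothelial markers was 8.68 to 9.14 in dnPI3K and 9.13 to 9.22 in dnPI3K-Mst1. The lowest dnPI3K value for each of these 3 lists was that of animal 3241. Of 26 macrophage markers 3 were higher and 2 lower, against 9.11% and 5.11% of all genes. Of these, 0 were higher without any 1 of animals 1648, 1509, 1649 and 1650, 1 without animal 1507 or 3241, and the lower count was 1 without any 1 of animals 1507, 1660, 1509, 1647 and 1650. MHC class II genes were called in 0 of 6. Myocyte markers fell in 3 and rose in 0 of 12 cases (median -0.11 log2; mean level 11.81 to 12.00 against 11.72 to 11.86). The part of cell composition in the matrix result was not tested.

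**Figure D4:**
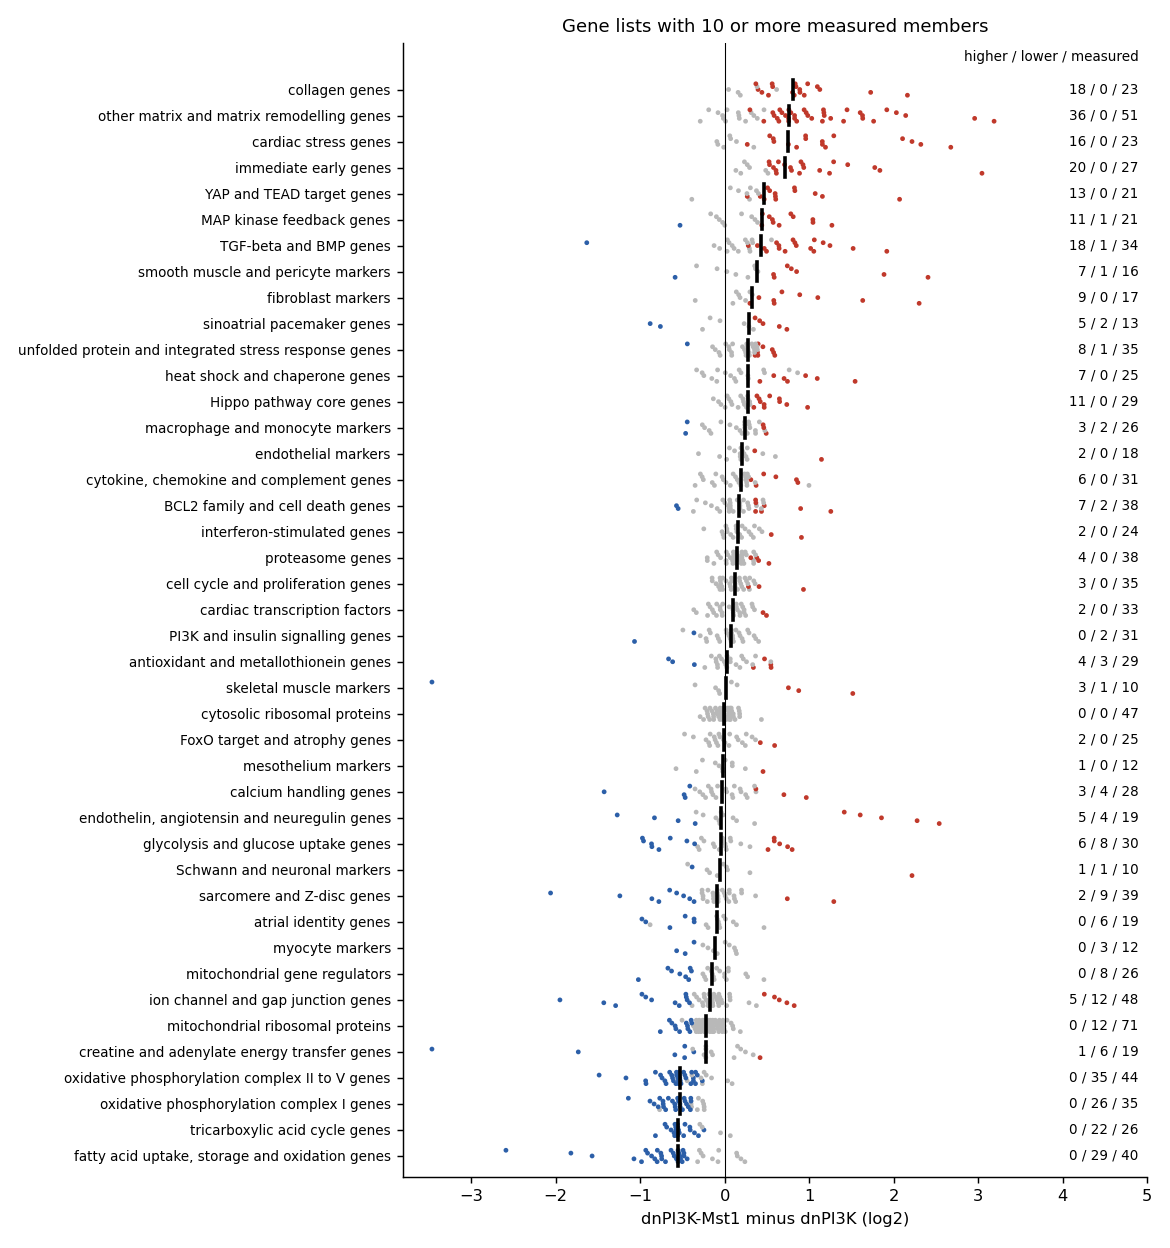
Difference of dnPI3K-Mst1 minus dnPI3K (log2, horizontal) for every measured member of the 42 gene lists with 10 or more; red points were called higher, blue lower, grey not called, black bars are list medians, and the numbers at the right count higher, lower and measured members. Lists of matrix, stress and immediate early genes lie at the top (collagen median 0.80), and lists of mitochondrial energy genes at the bottom (fatty acid median -0.55).

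Many mitochondrial energy genes fell. Of 35 genes of complex I, the entry point of electrons into the respiratory chain, 26 fell and 0 rose, with a median of -0.53 log2. Of 44 genes of complexes II to V, 35 fell and 0 rose (median -0.53 log2). Of 26 tricarboxylic acid cycle genes 22 fell and 0 rose (median -0.55 log2). For comparison 5.11% of all genes were lower. Cox7a1, the heart and muscle form of a cytochrome oxidase subunit, read 10.40, 11.07, 10.85 and 10.58 in dnPI3K and 9.54, 8.83, 9.13 and 9.47 in dnPI3K-Mst1, a fall of 1.49 ± 0.16 log2. Ndufs6, a complex I subunit, fell by 1.14 ± 0.15 log2, and Sdhb, the iron-sulphur subunit of complex II, by 0.82 ± 0.12 log2, in both cases with no overlap. Idh2, the mitochondrial isocitrate dehydrogenase, fell by 0.71 log2 from between 10.91 and 11.31 to between 10.12 and 10.66. Without animal 3241 the complex I count was 34, and without animal 1648 it was 19.

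Fatty acid genes followed the same direction, with 29 of 40 lower and 0 higher (median -0.55 log2). Besides Ces1d and Dgat2, Ucp3, a mitochondrial uncoupling protein, read 6.04, 6.11, 5.89 and 7.19 against 5.16, 4.66, 4.59 and 4.55 and fell by 1.57 ± 0.24 log2. Acaa2, the thiolase of beta oxidation, fell by 1.07 ± 0.15 log2 from between 10.30 and 10.93 to between 9.36 and 10.01. Glycolysis and glucose uptake genes were split, with 6 higher and 8 lower of 30, against 9.11% and 5.11% of all genes. The transporter found in most cells, Slc2a1, rose by 0.74 log2, whereas the insulin-responsive transporter of muscle and fat, Slc2a4, fell by 0.78 log2, and Ldhb, the heart form of lactate dehydrogenase, fell by 0.96 log2. Among genes for creatine and adenylate energy transfer 6 fell and 1 rose of 19, with 0 higher without animal 1509, 1649 or 1650 and 2 without 1660. With all arrays the rise did not exceed the 9.11% of all genes. Of 26 regulators of mitochondrial genes 8 fell and 0 rose, among them Ppargc1a, the co-activator PGC-1 alpha (-0.67 ± 0.14), and Rxrg, a retinoid receptor (-1.02 ± 0.17 log2). Leaving out animal 1660, 1647 or 1650 gave 5 lower regulators. Mitochondrial ribosomal proteins were lower in 12 of 71 cases (median -0.22 log2), in 7 without animal 1660, 1647 or 1649 and in 19 without 3241, and cytosolic ribosomal proteins were called in 0 of 47, at a median of -0.01 log2.

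Electrical genes came next. In a list of 48 channel and connexin genes 12 were lower and 5 higher, with a median of -0.17 log2. Among all genes 5.11% were lower and 9.11% higher, so the list's rises were near that share. Genes of potassium currents led the falls. Kcnh7, a channel of the ERG family, read 6.65, 7.02, 6.79 and 6.94 in dnPI3K and 5.22, 4.61, 4.83 and 4.93 in dnPI3K-Mst1, a fall of 1.95 ± 0.14 log2. Kcnd2, a subunit of the transient outward current, fell by 1.43 ± 0.19 log2, and its partner Kcnip2 by 1.29 ± 0.16 log2. Kcnj3, the atrial channel opened by acetylcholine through muscarinic receptors, read 10.16 to 10.40 against 9.23 to 9.43 and fell by 0.98 ± 0.09 log2, and Gja5, the atrial gap junction protein connexin 40, fell by 0.93 ± 0.12 log2. The groups were apart for all 5 genes. The rises included Hcn4, the pacemaker channel, from 5.51, 5.40, 6.04 and 5.77 to 6.50, 6.36, 6.54 and 6.27 (0.74 ± 0.14 log2), and the calcium channel genes Cacna1g (0.65) and Cacna2d2 (0.82 log2). Of 13 sinoatrial pacemaker genes 5 rose and 2 fell, with 3 higher without any 1 of animals 1648, 1509, 1647 and 1650, and also after centring or quantile normalization. Of 19 atrial identity genes 6 fell and 0 rose.

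Contractile and calcium handling genes were called in both directions, against 9.11% higher and 5.11% lower among all genes. Among 39 sarcomere and Z-disc genes 9 fell and 2 rose (median -0.09 log2), led by Lmod3 and by Tmod4, a skeletal tropomodulin (-1.24 log2). Among 28 calcium handling genes 4 fell and 3 rose (median -0.03 log2), with 5 higher without animal 1507. With all arrays, the rises in both lists were near or below the share of all genes. Hrc, the histidine-rich calcium-binding protein of the sarcoplasmic reticulum, read 9.46, 9.66, 10.06 and 9.59 against 8.58, 7.88, 8.22 and 8.39 and fell by 1.43 ± 0.16 log2. The calcium pump inhibitors sarcolipin (Sln) and phospholamban (Pln) fell by 0.47 and 0.41 log2, and the calcium sensor Stim1 rose by 0.70 ± 0.15 log2. Ventricular myocyte markers were lower in 1 of 9 cases, the call being that of Lrrc10 (-0.98 log2). The count was 3 without animal 3241 and 2 without animal 1507 or 1648. Myl3 read 9.20 in animal 1648 and 6.84 to 7.16 in the other dnPI3K arrays, and its difference of -1.17 log2 was not called (adjusted p = 0.0541). Myl3 was called lower without animal 1648 (-0.62 log2, adjusted p = 0.00991), 1507 (-1.35 log2, 0.0402) or 3241 (-1.41 log2, 0.0203), and with the animal as a block (0.0262) or array weights (0.013).

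PI3K signalling and FoxO genes were examined in these animals, which all carry dnPI3K. Of 31 PI3K and insulin signalling genes 2 fell and 0 rose, against 5.11% and 9.11% of all genes. The lower count was 1 without any 1 of animals 1507, 1660, 1647, 1649 and 1650, and 2 were higher without 1660. Besides Pik3r1, Igf1, the growth factor upstream of PI3K, read 7.76, 8.28, 7.76 and 8.47 in dnPI3K and 7.04, 7.13, 6.98 and 6.86 in dnPI3K-Mst1 and fell by 1.07 ± 0.15 log2 (adjusted p = 0.000327). Of 25 FoxO target genes 2 were higher, near the 9.11% of all genes, and 0 lower, with Gabarapl1, an autophagy gene, at 0.59 log2. The medians of these lists were 0.08 and -0.01 log2, against 0.04 over all genes.

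Protein folding and cell death genes rose in part, beside 9.11% higher and 5.11% lower among all genes. Of 25 heat shock genes 7 rose and 0 fell; Hspa1a, an inducible HSP70, read 6.63, 6.03, 6.50 and 6.01 against 7.17, 6.74, 8.91 and 8.53, so that its rise of 1.54 ± 0.37 log2 was carried mainly by animals 1649 and 1650 and was not called with the animal as a block (adjusted p = 0.0962). Without animal 1647, 11 heat shock genes were higher. Of 35 unfolded protein and integrated stress response genes 8 rose and 1 fell, so the fall did not exceed the share of all genes. Ddit3, the factor CHOP, rose by 0.56 log2, a call lost without animals 1507 and 3241 (0.36 log2, adjusted p = 0.103) and without animal 1649 (0.0801) or 1650 (0.0702), and Herpud1 fell by 0.44 log2. Without those 2 arrays 4 genes of the list were higher, and without animal 1649 or 1650 there were 3. Of 38 BCL2 family and cell death genes 7 rose and 2 fell, against 9.11% and 5.11% of all genes, so the falls were near that share. Leaving out single arrays gave as few as 2 higher (without 1649), 3 (without 1650) and 4 (without 1660, 3241 or 1647). The anti-apoptotic gene Bcl2 rose by 0.90 ± 0.13 log2, from 6.55 to 7.16 up to 7.64 to 7.99, and the pro-apoptotic gene Bcl2l11 (BIM) fell by 0.55 ± 0.12 log2. Gadd45g, a stress-induced cell cycle regulator, rose by 1.26 log2. Of 35 proliferation genes 3 were higher, near the 9.11% of all genes, with Ccnd1, cyclin D1, at 0.93 log2. With 1 array left out 1 or 2 were higher, and 1 without any 1 of animals 1648, 1660, 1649 and 1650.

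The second comparison asked whether Mst1 changed the Bmp10-high atrium differently from the Bmp10-low atrium of the same animals. The difference between each animal's 2 arrays was taken and compared between the genotypes. It differed for 117 of 15176 genes (0.771%), 84 (0.554%) in the direction of a higher value and 33 (0.217%) of a lower value in the Bmp10-high atrium, with 1233 genes at an unadjusted p under 0.05. The fit without the animal as a block called 41 genes, and of the 26 named genes whose term was called 15 were not called in it, among them those of Penk (adjusted p = 0.0895), Inmt (0.053) and Hamp (0.111). In the Bmp10-low atria alone 2190 genes (14.4%) were called, 1153 (7.60%) higher and 1037 (6.83%) lower. The arrays of both atria come from the same 8 animals, so values are set side by side.

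Plet1, a membrane protein of epithelial progenitors, gave the largest such difference. In the Bmp10-high atria it read 6.19, 6.27, 6.40 and 6.13 in dnPI3K and 8.11, 8.20, 8.38 and 8.90 in dnPI3K-Mst1, a rise of 2.15 log2, whereas in the Bmp10-low atria it fell by 1.40 log2. These changes differed by 3.55 ± 0.30 log2 (adjusted p = 9.05e-05). Penk fell by 3.00 log2 in the Bmp10-high atria and differed by -0.94 log2, not called (adjusted p = 0.116), in the Bmp10-low atria (difference -2.06 ± 0.22 log2). Lepr, the leptin receptor, fell by 0.98 log2 in the former and differed by 0.71 log2 in the latter, which was not called (difference -1.69 ± 0.16 log2). Of the 8 largest terms, 4 came mainly from the Bmp10-low atria: Inmt (2.59), Ifi205 (1.97), Cpne7 (1.62) and Scara5 (1.59 log2) fell there, with differences of -3.34, -2.70, -1.62 and -1.94 log2. In the Bmp10-high atria these 4 genes differed by -0.75, -0.74, 0.00 and -0.35 log2, and among them Ifi205 was called (adjusted p = 0.0344), though not without any 1 of animals 1507, 1660, 1509, 1647 and 1650 (0.0702 to 0.104). Hamp differed by -0.88 log2 in the Bmp10-high atria, not called (adjusted p = 0.052), and rose by 1.05 log2 in the Bmp10-low atria (difference -1.93 ± 0.30 log2).

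Among genes described above, several rose more in the Bmp10-high atria, where their dnPI3K means were lower. Nrg1 rose by 2.54 log2 there and by 1.33 log2 in the Bmp10-low atria (difference 1.21 ± 0.19, adjusted p = 0.0055). Fam171b rose by 2.69 and 1.76 log2 (difference 0.93). Ace rose by 1.60 and 0.64 log2 (difference 0.97), and Axl by 1.07 and 0.34 log2 (difference 0.73). Egr1, Errfi1, Dusp4, Gadd45g and Ccn2 rose in the Bmp10-high atria and were not called in the Bmp10-low atria, with differences of 1.42, 0.98, 0.96, 1.36 and 0.72 log2. Pi16 rose by 1.10 log2 in the former and fell by 0.33 log2 in the latter (difference 1.44). In dnPI3K all these genes had lower means in the Bmp10-high than in the Bmp10-low atria. Nrg1 was at 6.51 against 7.995 log2 and Ccn2 at 10.75 against 11.47. With Mst1 Nrg1 was at 9.04 against 9.33 and Ccn2 at 11.91 in both. Means with Mst1 were higher in the Bmp10-low atria for Nrg1, Ace, Egr1, Gadd45g and Pi16. They were higher in the Bmp10-high atria for Fam171b, Errfi1 and Dusp4. Bmp5 fell by 1.63 log2 and differed by -0.35 log2, not called, in the Bmp10-low atria (difference -1.28). The reverse held for Cacna2d2, which rose by 0.82 and 2.23 log2 (difference -1.41), and for the cardiac transcription factor Tbx20, which rose by 0.50 and 1.39 log2 (difference -0.90). Of the terms named here, those of Axl, Ccn2, Egr1 and Gadd45g lost their calls in 4, 5, 5 and 6 of the 8 cases of 1 animal left out (adjusted p up to 0.0733, 0.12, 0.136 and 0.131). For Thbs1 (3.19 and 3.05), Thbs4 (2.96 and 3.38), Ckm (-3.46 and -3.30) and Stk4 (0.74 and 0.71 log2) the changes in both atria were of like size, and the term was not called. MHC class II genes, called in 0 of 6 cases in the Bmp10-high atria, were higher in 4 of 6 in the Bmp10-low atria (median 1.21 log2).

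**Figure D5:**
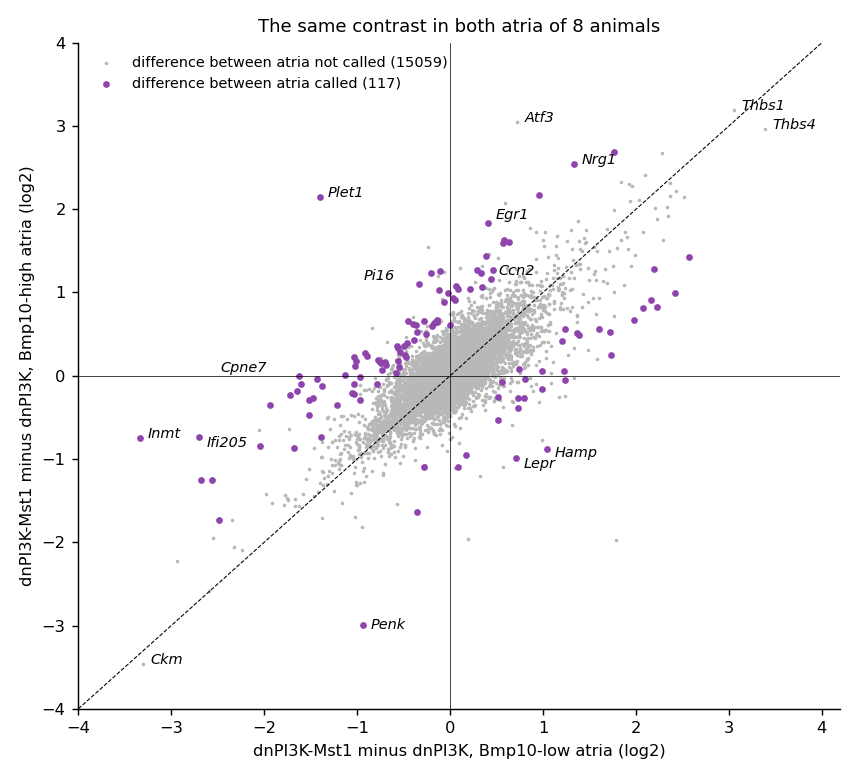
Difference of dnPI3K-Mst1 minus dnPI3K in the Bmp10-low atria (log2, horizontal) against that in the Bmp10-high atria (log2, vertical) of the same 8 animals, 1 point per gene; purple points are the 117 genes whose differences differed between the atria, grey points the others, and the dashed line marks equal differences. Thbs1 and Ckm lie near the line, Plet1 and Penk far from it.

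The third comparison asked whether Mst1 changed Bmp10-high atria differently with and without dnPI3K, using 4 Ntg and 4 Mst1 arrays beside the 8 above, among them the outlying array of Mst1 animal 1466. The term was called for 26 of 15176 genes (0.171%), 24 (0.158%) higher and 2 (0.0132%) lower, with 1476 genes at an unadjusted p under 0.05. It rests on few arrays: 7 genes were called without Ntg animal 1301 and 7 without Ntg animal 1657. Other counts were 11 without Mst1 animal 1838, 11 without dnPI3K animal 1648, 13 without Mst1 animal 1839, 13 without dnPI3K-Mst1 animal 1647 and 16 without dnPI3K-Mst1 animal 1509. The count grew to 49 without Ntg animal 1834 and to 73 without Mst1 animal 1466. Array weights gave 178.

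Of the 8 genes with the largest such difference, 5 fell with Mst1 alone, and 4 of these were not called lower with Mst1 on the dnPI3K background. Igfbp5, an IGF-binding protein, fell by 1.23 log2 in Mst1 against Ntg, whereas with dnPI3K it read 10.33, 9.85, 10.21 and 9.49 and 10.41, 10.40, 10.17 and 10.06 and was not called (0.29 log2). The changes differed by 1.52 ± 0.27 log2 (adjusted p = 0.0196). Stc1, stanniocalcin 1, fell by 1.14 log2 without dnPI3K and differed by -0.02 log2 with it (difference 1.12 ± 0.17). Adm, the vasodilator adrenomedullin, fell by 0.64 log2 without dnPI3K and rose by 0.56 log2 with it (difference 1.2 ± 0.19). Cacna1g, a T-type calcium channel, fell by 0.51 log2 without dnPI3K and rose by 0.65 log2 with it (difference 1.16 ± 0.19), and Cacna2d2 differed by -0.32, not called, and rose by 0.82 log2 (difference 1.14). Gpr158 fell in both settings, with differences of -2.34 and -1.14 log2. When 1 array was left out, the term lost its call for Cacna2d2 in 12 cases, Adamts8 in 13, Igfbp5 in 4 and Gpr158 in 2 (adjusted p up to 0.101, 0.102, 0.0703 and 0.0555). The 2 genes in the other direction were Adamts8, a matrix protease (1.15 and -0.29, the latter not called; difference -1.44), and Ndnf, a secreted neuronal and endothelial factor (0.56 and -0.64 log2; difference -1.2). Against Ntg alone, the call of Cacna1g was lost without any 1 of Ntg animals 1301, 1657 and 1834 and Mst1 animals 1838 and 1839, that of Adm without Ntg animal 1657, and that of Ndnf without any 1 of Ntg animals 1301, 1657 and 1662 and Mst1 animals 1838, 1839 and 1840 (adjusted p = 0.0514 to 0.126).

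The contrast of Mst1 with Ntg shares no array with that of dnPI3K-Mst1 with dnPI3K. It called 1819 genes (12.0%), 621 (4.09%) higher and 1198 (7.89%) lower. Without the outlying array of Mst1 animal 1466 it called 3244, of which 1736 were higher and 1508 lower, and without Mst1 animal 1838 405 were higher. Of the 1383 genes that rose with Mst1 on the dnPI3K background, 454 were also higher there, which is 32.8% of the former and 73.1% of the latter list, and 2 were lower. Of the 776 that fell, 586 were also lower, 75.5% of the former and 48.9% of the latter list, and 1 was higher. Without Mst1 animal 1466 the shared rises were 868 (62.8% and 50% of the lists) and the shared falls 634 (81.7% and 42%). Collagen genes were higher in 2 of 23 cases without dnPI3K (6 without Mst1 animal 1466) and in 18 of 23 with it, but the term itself was called for 1 collagen gene. Complex I genes were lower in 28 and 26 of 35 cases, and cardiac stress genes higher in 15 and 16 of 23. Nppb rose by 1.44 log2 without dnPI3K and by 0.53 log2 with it, a difference of -0.91 ± 0.23 that was not called (adjusted p = 0.118).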

How the data were processed

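Total RNA (100 ng per sample) was hybridised to Affymetrix Mouse Gene 1.0 ST arrays, per the labels' protocols. The deposited values are log2 probe set signals that the authors made with Affymetrix Expression Console and PLIER, per the submitters' processing notes; versions, background correction and scaling are not given in the sources used here, and base 2 was taken from the range, 1.16 to 14.1. Of 35512 probe sets, 21789 carried 1 gene symbol, 1621 several and 12102 none. The brightest single-symbol probe set stood for each gene, and genes with a mean below 4.51 log2 (the 30th percentile) were left out, which left 15176. An array cannot give counting errors; precision rests on 4 animals per group.

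Groups were compared with limma 3.58.1 in R 4.3.3 (lmFit, eBayes with trend), two-sided, with Benjamini-Hochberg adjustment over all genes, called at an adjusted p under 0.05; errors are SE unless named. The comparison between atria used each animal's difference, since an animal's 2 arrays share its number (deviations correlated at -0.01 to 0.44), and the comparison with and without dnPI3K used 16 arrays. The fits were tested on simulated data with known changes, in which small changes were recovered far less often than large ones.

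The members, 49 gene lists and tests were chosen with earlier results of these data known. Named genes are the 12 largest rises and falls among called genes whose groups do not overlap (without Xist, Y-linked genes, unnamed models and genes of a probe set with several symbols), up to 4 called members of each list, 8 fixed genes, and the 8 called genes with the largest difference in each of the other 2 comparisons. Outside this rule, after their values were seen, came Lats2, Ankrd1, Crim1, Fos, Etv1, Agtr1a, Erbb4, Erbb3, Agt, Hbegf, Slc2a1, Slc2a4, Pln, Herpud1, Myl2 and Myl3. Promoters matched RefSeq by symbol.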

Additional observations from a re-analysis of the deposited data

Results flagged for a closer look

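In 9 of 244 groups of 4 arrays, formed by 122 named genes and 2 genotypes, 1 array lay far from the other 3 by Dixon's test, which chance alone gives in about 1 of 20 groups. Of these, 5 were low values of dnPI3K animal 3241: Nes at 5.70 (others 6.45 to 6.55), Spry1 at 6.61 (7.35 to 7.39), Col12a1 at 5.08 (5.22 to 5.25), Flnc at 8.33 (8.91 to 9.01) and Stim1 at 6.52 log2 (7.10 to 7.17). In dnPI3K animal 1648 Scgb1c1 was high at 8.66 (6.98 to 7.06) and Myl3 at 9.20 log2 (6.84 to 7.16). In dnPI3K-Mst1, Col8a1 was high at 8.35 in animal 1647 (8.09 to 8.12) and Kcnj3 at 9.43 log2 in animal 1509 (9.23 to 9.24).

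The change with Mst1 differed between the Bmp10-high and Bmp10-low atria, by the limma test of that difference, for Fam171b (0.93), Nrg1 (1.21), Penk (-2.06), Ckmt2 (0.75), Ccn2 (0.72), Axl (0.73), Egr1 (1.42), Errfi1 (0.98), Dusp4 (0.96), Ace (0.97), Bmp5 (-1.28), Mfap4 (1.05), Pi16 (1.44), Cacna2d2 (-1.41), Gadd45g (1.36), Tbx20 (-0.90), Plet1 (3.55), Inmt (2.59), Hamp (-1.93), Ifi205 (1.97), Lepr (-1.69), Cpne7 (1.62), Scara5 (1.59), Adamts8 (1.23), Adm (-0.68) and Cytl1 (-1.03 log2).

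It differed with and without dnPI3K, by the test of that term, for Sprr1a (0.95), Cacna1g (1.16), Cacna2d2 (1.14), Igfbp5 (1.52), Adamts8 (-1.44), Ndnf (-1.2), Gpr158 (1.2), Adm (1.2) and Stc1 (1.12 log2). The cause of these differences was not tested.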

How the results depend on the processing

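The main count of 2159 genes stayed within 1.5 times under other scalings, filters, weights and probe set rules, except with the mean of each animal's 2 arrays, which gave 3289, of which 1280 were lower; that setting includes the Bmp10-low atria. Leaving out 1 array gave 1443 to 2110 genes, 885 to 1378 higher and 558 to 882 lower. With the animal as a replicate block over both atria 2451 genes were called, and of 122 named genes 5 (Car3, Nr4a1, Hspa1a, Egr2 and Col1a1) lost a call and 1 (Myl3) gained one. The difference between atria (117 genes) was called for 41 genes with no replicate block, 31 higher and 10 lower, and array weights gave 50 lower. Leaving out 1 animal gave 78 to 125 genes, 52 to 83 higher and 23 to 42 lower. The difference with and without dnPI3K (26 genes) was called for 178 genes with array weights, 141 higher and 37 lower; centring gave 1 lower and no filter 4 lower. Leaving out 1 array gave 7 to 73 genes, 6 to 50 higher and 1 to 23 lower. The contrast of Mst1 with Ntg, whose alternatives were chosen after seeing the data, gave 1272 to 3244 genes with 1 array left out, 405 to 1736 higher and 823 to 1508 lower. Signs changed for Cpne7 and Stc1, which lie close to 0: Cpne7 was at 0.0185 log2 after quantile normalization and at -0.1019 to 0.0719 without single arrays, Stc1 at 0.0042 with array weights and at -0.0529 to 0.003 without single arrays. Hamp, at -0.88 log2, was at 0.0825 with the mean of 2 arrays, which includes the Bmp10-low atria. Myl2 was at -1.4745 to 0.357 log2 without single arrays, the highest without animal 1648. The cause was not tested. Over the named genes and single arrays left out, 1201 results were unchanged in call and direction, 111 lost a call, 9 gained one and 7 changed sign; beside those given with their results, calls of Cytl1 and of the terms of Adm, Ckmt2 and Sprr1a were lost and those of Hamp, Scara5, Inmt and Adamts8 gained. Counts of list members moved by over 1.5 times in 129 cases with 1 array left out and kept within that range in 655. Signal over background is not in the table used here, so dim genes are limited by the filter alone.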
